A study of Mus musculus with 30 samples.

Results

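Mef2a, Mef2c and Mef2d encode transcription factors of the myocyte enhancer factor 2 family, and Hdac4 encodes a histone deacetylase that binds them. These 4 genes were taken by name from the 248 target genes of an inflammation panel measured in mouse peritoneal macrophages, because Mef2a was low in one of the genotypes (COX-2>COX-1) and the question was whether its relatives were low there too. The genes were thus chosen by the signals of COX-2>COX-1 against wild type after LPS, and in that comparison the 4 genes are described without a test. All 4 passed the filter on low signal and were among the 202 genes tested. The fourth family gene, Mef2b, was not among the chosen genes and appears below in a list of related genes.

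The study compared 5 groups of 6 mice on the C57BL/6 background, aged 12 to 16 weeks. Wild-type mice were given PBS (WT-LPS) or 2 mg/kg of lipopolysaccharide (LPS, a bacterial cell wall component) into the peritoneum (WT+LPS). Mice of the genotypes COX-1>COX-2, COX-2>COX-1 and Reversa all received the same dose of LPS, and RNA was taken 6 h after the injection. In these lines the coding sequences of the cyclooxygenase genes are placed in each other's loci: in COX-1>COX-2 mice the Ptgs2 locus carries that of Ptgs1, in COX-2>COX-1 mice the reverse holds, and Reversa mice carry both, as background on the strains and not from the labels. The exchange is carried in the germline, so it is present in all cells of the animal and not in macrophages alone. No exchange mice given PBS were analysed here, so the effect of LPS within those genotypes was not measured.

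The signals came from nCounter hybridisation, in which barcoded probes bound to RNA molecules are counted directly. About 298396 to 1001820 counts lay behind each sample, and 1 count was worth between 0.646 and 1.94 units of signal. A signal of 20 or less, a level exceeded by 1 of 240 negative control values, was taken as not above background. Reversa samples 55 and 56 differed by little more than counting noise (chi-square 1.27 per gene, against 22 for the next closest of 75 pairs within groups) and were averaged and counted as 1, which leaves 5 Reversa samples. The 3 instrument runs each held 2 samples of every group, always in the same lanes for a given group, so lane position and group cannot be told apart. Of the exchanged genes, Ptgs1 signal was 1 to 5.77 in COX-2>COX-1 and Ptgs2 signal was 1 to 1.76 in COX-1>COX-2, all under the background level. Of 15 listed macrophage markers 10 were analysed, and none of them was at or under the background level in all samples of any group. Their summed signal was 105763 to 146674 in WT-LPS and 32177 to 58909 in WT+LPS. Markers of other cells were present too. The 6 T and NK cell genes analysed summed to 1236 to 7657 over all samples, with Il2 at or under background in each, and the 2 B cell genes to 2524 to 5754. Of the neutrophil, the mast cell and eosinophil, and the stromal lists, 3 of 7, 4 of 7 and 2 of 7 genes were analysed. Their summed signals were at most 312 in any sample, and Cxcr1 (neutrophils) was at or under background in each. With so few genes, a low sum does not show that such cells were few.

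MEF2 proteins bind A and T rich DNA elements as dimers through a MADS domain, and different family members can pair with each other. They were first known from muscle, and in blood cells they act in B lymphocytes and in myeloid cells. Their activity is raised by phosphorylation through p38 and ERK5 kinases. HDAC4 and the other class IIa histone deacetylases bind MEF2 proteins and repress their targets until calcium-dependent and protein kinase D phosphorylation sends the deacetylase out of the nucleus. The level of a MEF2 messenger RNA is thus only one of the steps that set MEF2 activity, and protein, phosphorylation and location were not measured here.

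The 4 genes lie on different chromosomes of the mouse genome (build GRCm38.p6, annotation of RefSeq) and all are protein coding. Mef2a is annotated at chr7:67231163-67376456, Mef2c at chr13:83504017-83667079, Mef2d at chr3:88141941-88172091 and Hdac4 at chr1:91928779-92195702. To show an annotated start region of each gene, the 280 bases around it (250 before the start and 30 from it on) are printed from RefSeq. They read 5′ to 3′ on the strand of the gene. Which start is used in these cells was not measured. The windows are chr7:67372829-67373108 on the minus strand for Mef2a, chr13:83573357-83573636 on the plus strand for Mef2c, chr3:88142122-88142401 on the plus strand for Mef2d and chr1:92180312-92180591 on the minus strand for Hdac4. For Mef2c, 3 windows were listed, and the one printed is the one that holds a match to a motif. Capitals mark a match to 1 of 3 motifs searched on both strands. The first was CTA and TAG with any 4 bases between (the core of the element that MEF2 proteins bind). The others were TGANTCA and TGACGTCA (the cyclic AMP response element). TGANTCA is wider than the AP-1 site, which has C or G at the open base.
Mef2a: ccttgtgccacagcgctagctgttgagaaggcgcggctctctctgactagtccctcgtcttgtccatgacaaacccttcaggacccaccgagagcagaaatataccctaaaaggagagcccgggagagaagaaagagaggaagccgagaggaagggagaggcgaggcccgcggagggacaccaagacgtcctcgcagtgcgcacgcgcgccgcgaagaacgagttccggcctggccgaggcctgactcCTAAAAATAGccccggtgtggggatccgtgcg
Mef2c: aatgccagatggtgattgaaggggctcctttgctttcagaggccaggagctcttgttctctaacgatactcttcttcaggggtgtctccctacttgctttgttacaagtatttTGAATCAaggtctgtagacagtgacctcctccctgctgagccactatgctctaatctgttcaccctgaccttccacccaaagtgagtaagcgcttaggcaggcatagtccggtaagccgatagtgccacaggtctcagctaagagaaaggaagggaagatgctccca
Mef2d: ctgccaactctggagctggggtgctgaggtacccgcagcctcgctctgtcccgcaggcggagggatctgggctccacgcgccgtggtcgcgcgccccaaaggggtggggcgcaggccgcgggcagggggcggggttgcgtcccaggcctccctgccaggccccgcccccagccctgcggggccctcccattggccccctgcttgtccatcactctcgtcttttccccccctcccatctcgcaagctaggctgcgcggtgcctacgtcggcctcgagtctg
Hdac4: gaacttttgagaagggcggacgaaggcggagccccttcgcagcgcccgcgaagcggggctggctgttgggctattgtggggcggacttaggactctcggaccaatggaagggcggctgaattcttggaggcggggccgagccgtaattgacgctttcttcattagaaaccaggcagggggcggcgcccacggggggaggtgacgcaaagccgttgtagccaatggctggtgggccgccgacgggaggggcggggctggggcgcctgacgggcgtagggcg
The Mef2a window held CTAAAAATAG across the annotated start, a match to the MEF2 core. Such a match is found in 1151 of 32851 windows of the same length (3.50%). The printed Mef2c window held TGAATCA, a match to TGANTCA with A at the open base and so not the AP-1 site itself. The wider pattern TGANTCA is found in 7.46% of windows. The rate is per window, while this window was taken from 3 because it held a match. The windows of Mef2d and Hdac4 held none of the 3 motifs. G and C made up 61.4% of the Mef2a window, 49.6% of the printed Mef2c window, 72.9% of the Mef2d window and 67.1% of the Hdac4 window. A match is a run of letters and does not show that a protein binds there.

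LPS lowered all 3 MEF2 genes in wild-type cells, while Hdac4 did not pass the test. After LPS, Mef2c signal stood at 33.6% of its level in PBS-treated mice, Mef2d at 48.2% and Mef2a at 54.8% (ratios of geometric means). The signals by sample are drawn in the plot of all 4 genes below.

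**Figure D1:**
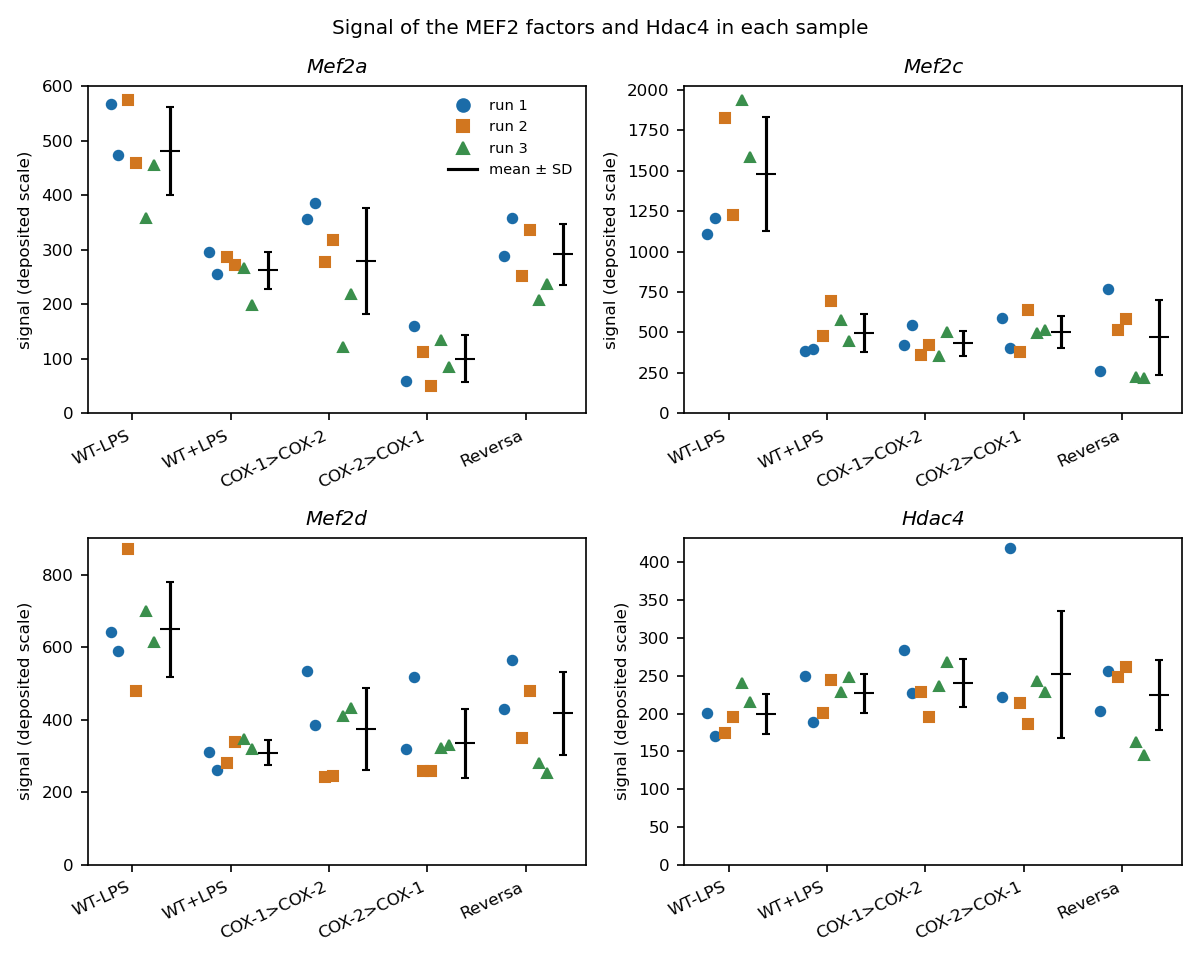
Signal of Mef2a, Mef2c, Mef2d and Hdac4 on the deposited scale (y axis, linear, from 0) in each of 30 samples by group (x axis); marker shape and colour give the instrument run, and the bar beside each group is the mean ± SD, with Reversa samples 55 and 56 drawn apart but averaged in the mean. The 3 MEF2 genes are highest in WT-LPS, the 6 Mef2a values of COX-2>COX-1 (50.4 to 159.9) lie under all values of WT+LPS (199 to 295), and 1 COX-2>COX-1 sample stands out at 519 for Mef2d and 419 for Hdac4.

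For Mef2c, a family member with known roles in muscle, neurons and lymphocytes, the lowest, median and highest signals were 1108, 1403 and 1938 in WT-LPS. In WT+LPS they were 385, 462 and 697. The groups did not overlap, and 26.7% of all tested genes were likewise lower with no overlap. Mean Mef2c signal was 1481 ± 352 (SD, n = 6) without and 497 ± 119 (n = 6) with LPS, a difference of -1.57 ± 0.24 (SE) on the log2(signal + 1) scale (limma with Benjamini-Hochberg adjustment over 202 genes, adjusted p = 9.58e-07).

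Mef2d, the broadly expressed member, had a lowest, median and highest signal of 479, 628 and 872 in WT-LPS. The corresponding values in WT+LPS were 260.5, 316 and 348. Every LPS sample was thus below every PBS sample. The means were 649 ± 131 and 309.8 ± 33.7 (SD, n = 6 each), and the log2 difference was -1.05 ± 0.20 (SE, limma, adjusted p = 3.37e-05).

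Mef2a, which is known from heart and skeletal muscle and is also broadly expressed, ranged from 359 over a median of 466 to 574 in WT-LPS. In WT+LPS it ranged from 199 over 269 to 295, again with no overlap. Its means were 481 ± 80.3 and 263 ± 34.1 (SD, n = 6 each), a log2 difference of -0.87 ± 0.25 (SE, limma, adjusted p = 0.00292). Among the MEF2 genes this was the smallest difference, and its 95% interval (-1.39 to -0.35) overlapped those of Mef2c (-2.06 to -1.08) and Mef2d (-1.46 to -0.63).

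Hdac4 signals were 171, 198 and 240.2 (lowest, median, highest) in WT-LPS. In WT+LPS they were 189, 236 and 249, and the groups overlapped. The log2 difference was 0.19 ± 0.16 (SE, 95% interval -0.14 to 0.52, limma, adjusted p = 0.274), so a rise of up to about 0.52 is not distinguished from no change.

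LPS moved most of the panel. Of the 202 tested genes 83.7% passed the threshold of 0.05, with 49.5% higher and 34.2% lower, and the median log2 difference over all of them was 0.47. A fall of 3 of the 4 genes therefore stands against a background in which 34.2% of genes were lower. By size of the log2 difference Mef2c ranked 92, Mef2d 118, Mef2a 135 and Hdac4 191 of 202.

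The size of these differences depends on the genes used for scaling, because the authors held Cltc and Gapdh equal between samples. With 4 reference genes and without Gapdh and Pgk1, all log2 differences moved up by 0.51 in the median. Mef2c (-1.06) and Mef2d (-0.54) stayed past the threshold, Mef2a did not (-0.36, adjusted p = 0.202), and Hdac4 was called higher (0.69, adjusted p = 0.000138). With equal medians of the 202 tested genes the shift was -0.91. The MEF2 genes were then at -2.49 (Mef2c), -1.96 (Mef2d) and -1.78 (Mef2a), and Hdac4 was called lower at -0.72 (limma, adjusted p = 5.14e-05). The direction of the MEF2 genes was the same under all 5 scalings, as the plot of scalings shows, and that of Hdac4 was not.

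**Figure D2:**
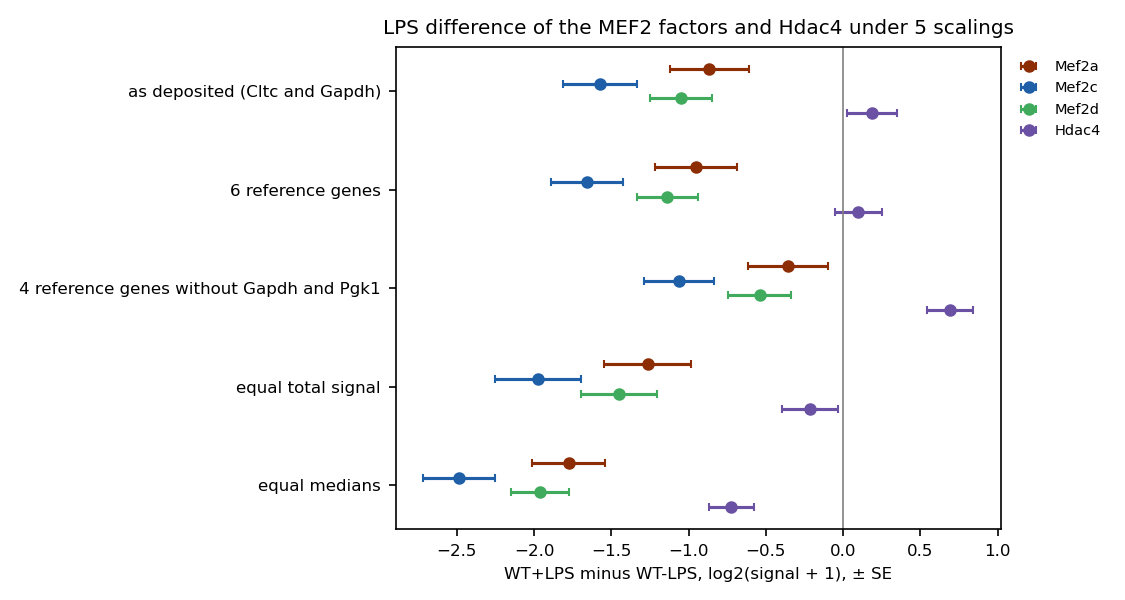
Log2 difference of WT+LPS minus WT-LPS (x axis, log2(signal + 1), ± SE) for the 4 genes under 5 ways of scaling the samples (y axis). Mef2c, Mef2d and Mef2a lie left of 0 under each scaling, and Hdac4 moves from 0.69 to -0.72.

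Ratios taken within a sample do not depend on the scaling. Signals of different probes are not comparable as abundances, so only the change of a ratio between groups is described. The log2 ratio of Hdac4 to Mef2d was -1.69 ± 0.35 in WT-LPS (SD, n = 6, range -2.32 to -1.30). In WT+LPS it was -0.45 ± 0.10 (n = 6, range -0.60 to -0.32), so the groups did not overlap and Hdac4 was higher relative to Mef2d after LPS. The share of other gene pairs that separate likewise was not counted. As 83.7% of tested genes passed after LPS, this separation is not shown to be particular to the pair. Mef2a relative to Mef2d was -0.43 ± 0.33 before and -0.24 ± 0.27 after LPS, with overlapping ranges. Mef2c relative to Mef2d went from 1.18 ± 0.26 to 0.66 ± 0.25, and here too the ranges overlapped (0.79 to 1.47 and 0.31 to 1.04).

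Markers of macrophages moved with the MEF2 genes. Of the 10 macrophage markers 8 were lower after LPS and none was higher, with a median log2 difference of -1.72. Of the B cell list 2 of 8 genes were analysed, Ltb and Cd40, and they moved in opposite directions, with a summed signal of 4446 to 5754 in WT-LPS and 2976 to 4111 in WT+LPS. The T and NK cell sum was 1236 to 2517 without and 2651 to 4039 with LPS, but of the 5 tested genes of that list 2 were higher and 2 lower. In WT+LPS most of the T and NK cell sum was Ccr7 (mean 2411), and most of the B cell sum was Cd40 (mean 3390). In RNA from whole cell samples, fewer cells of a type and less RNA per cell cannot be told apart. The part of cell composition in the fall of the MEF2 genes was not tested.

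In COX-2>COX-1, Mef2a was below wild type in every sample, and the other 3 genes overlapped with it. Mef2a signal there was 59.4, 159.9, 112, 50.4, 135 and 85.6 in samples 51 to 56. The WT+LPS samples ranged from 199 to 295, above all of these. Mean Mef2a signal was 100.4 ± 43.1 (SD, n = 6) against 263 ± 34.1, a log2 difference of -1.49 ± 0.25 (SE) or 2.80-fold, and it stood at 19.4% of the level in PBS-treated wild-type mice. The counts behind the 6 low values were 26 to 149 per sample. By size this was rank 2 of the 202 genes, after Ptgs1 itself. As these values chose the gene, no test is given. In this comparison 0.990% of tested genes passed the threshold, and 1.49% were lower with no overlap.

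Mef2c signal in COX-2>COX-1 had a lowest, median and highest value of 377, 504 and 639 (mean 503 ± 101, n = 6). That range lay almost wholly within the one of WT+LPS, and the log2 difference was 0.03 ± 0.24 (SE). Mef2d signal was 259, 321 and 519 (mean 335 ± 95.6, n = 6), with a difference of 0.08 ± 0.20 (SE). Hdac4 signal was 186, 225 and 419 (mean 252 ± 84.1, n = 6), with a difference of 0.11 ± 0.16 (SE). These values describe the comparison that chose the genes and were not tested.

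Sample 52 had the highest signal of the COX-2>COX-1 group for Mef2a (159.9), Mef2d (519) and Hdac4 (419). The other 5 samples spanned 259 to 331 for Mef2d and 186 to 243 for Hdac4. The same sample had the lowest summed macrophage markers of the group (30042, against 34838 to 43973 in the others). It also had the highest T and NK cell sum (7657, against 2930 to 4886). In WT+LPS most of that sum was Ccr7, so a high sum need not mean more such cells. The part of these sums in the values of sample 52 was not tested. Without it the log2 differences from WT+LPS were -1.64 for Mef2a, 0.08 for Mef2c, -0.06 for Mef2d and -0.05 for Hdac4. The 2 samples with the lowest Mef2a signal, 54 and 51, had the highest Mef2c signals of the group, 639 and 588.

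Within runs, the Mef2a difference was -1.49, -1.88 and -1.09 in runs 1 to 3. That of Mef2c was 0.32, -0.23 and -0.01. Mef2d differed by 0.51 in run 1, which held sample 52, and by -0.25 and -0.03 in the others, and Hdac4 by 0.49, -0.15 and -0.02. Every Mef2a value of COX-2>COX-1 lay under all those of WT+LPS, so a negative Mef2a difference in each run was given in advance. The other 3 genes had no common direction over the runs. Macrophage marker sums in COX-2>COX-1 (30042 to 43973) lay within or just under the range of WT+LPS, and 0 of the 10 markers passed the test between these groups (limma, 2 at an unadjusted p under 0.05).

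**Figure D3:**
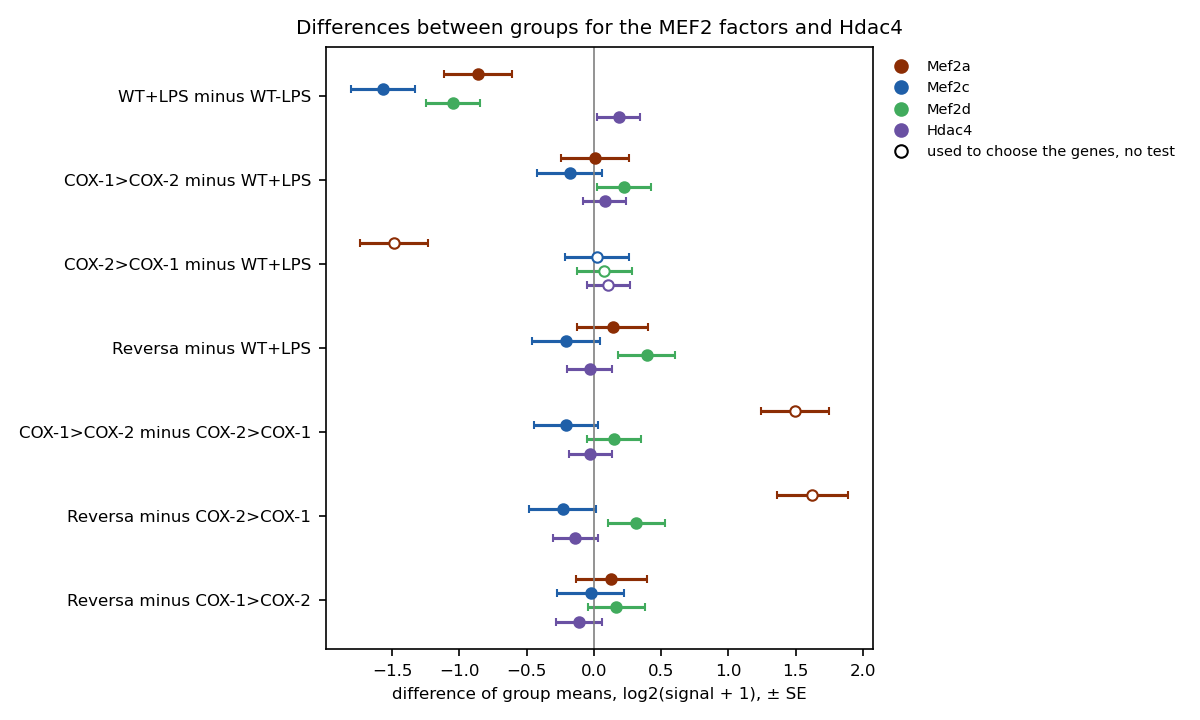
Log2 difference of group means (x axis, log2(signal + 1), ± SE from the fit) for the 4 genes in 7 comparisons (y axis). Open points mark differences that chose the genes and carry no test. In the genotype comparisons Mef2a stands at -1.49 in COX-2>COX-1 against WT+LPS and, with COX-2>COX-1 subtracted, at 1.63 for Reversa and 1.49 for COX-1>COX-2, and all other points lie between -0.23 and 0.39.

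The ratios within samples describe the same contrast without any scaling. They use the Mef2a signals that chose the genes, so a low ratio was given by that choice and adds no separate support. Mef2a relative to Mef2d was -1.82 ± 0.53 (log2, SD, n = 6, range -2.42 to -1.21) in COX-2>COX-1, and in WT+LPS it was -0.24 ± 0.27 (range -0.68 to 0.03). Mef2a relative to Hdac4 was -1.39 ± 0.45 in COX-2>COX-1 and 0.21 ± 0.29 in WT+LPS. By contrast Hdac4 relative to Mef2d was -0.42 ± 0.11 and -0.45 ± 0.10 in these groups, and sample 52 did not stand apart in it, since both genes were high there.

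**Figure D4:**
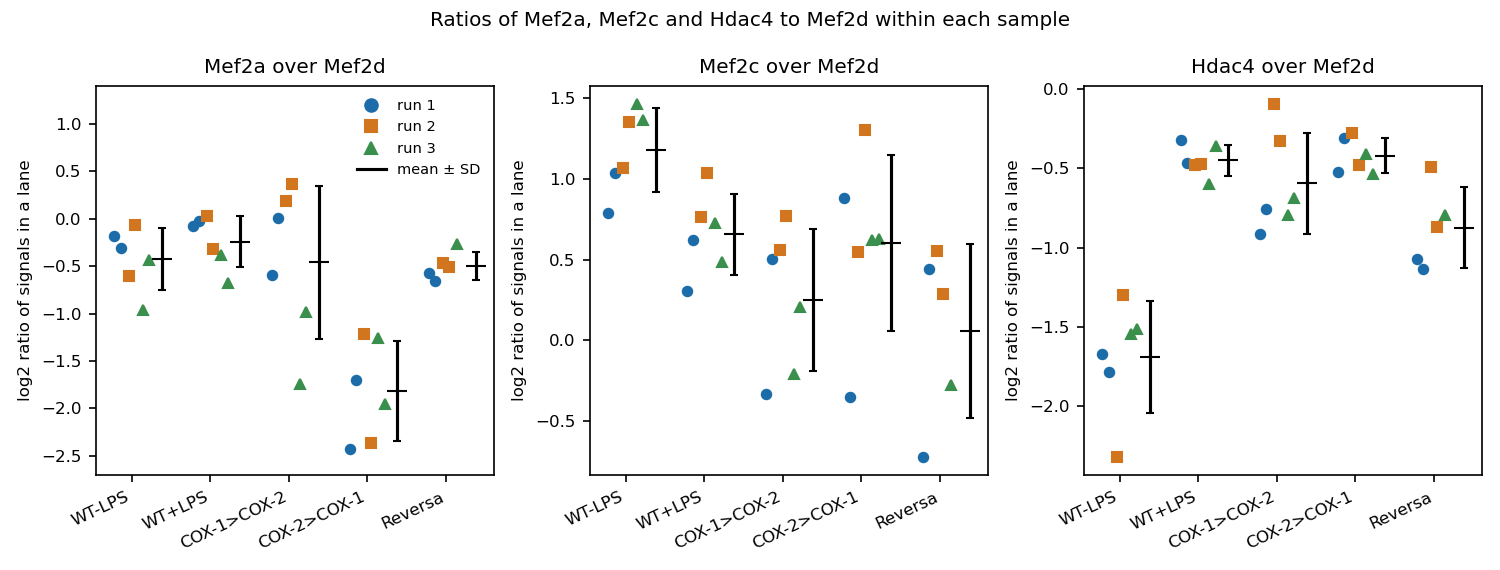
Log2 ratio of the signals of Mef2a, Mef2c and Hdac4 to that of Mef2d in the same sample (y axis) by group (x axis); markers give the run and the bar is the mean ± SD, with Reversa samples 55 and 56 as their mean. Mef2a over Mef2d is lowest in COX-2>COX-1 (-2.42 to -1.21), with 1 COX-1>COX-2 sample at -1.74, and Hdac4 over Mef2d is lowest in WT-LPS (-2.32 to -1.30).

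With the exchange in the Ptgs2 locus (COX-1>COX-2), none of the 4 genes differed from wild type after LPS by more than the test allows for. Mef2a signals were 122, 297 and 387 (lowest, median, highest; mean 279.8 ± 97.1, n = 6), a wider range than in WT+LPS on both sides. The log2 difference was 0.01 ± 0.25 (SE, 95% interval -0.51 to 0.53, limma, adjusted p = 0.983). By run, the Mef2a signals were 356 and 387, then 277 and 317, then 122 and 219, so both low values came from run 3. The difference within runs was 0.43 in run 1 and -0.49 in run 3, and neither passed the test.

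Mef2c signals in COX-1>COX-2 were 354, 423 and 546 (mean 434 ± 76.3, n = 6). The difference from WT+LPS was -0.18 ± 0.24 (SE, interval -0.67 to 0.31, limma, adjusted p = 0.826). Mef2d signals were 244, 397 and 535 (mean 375 ± 113, n = 6), and the difference was 0.23 ± 0.20 (interval -0.19 to 0.64, adjusted p = 0.752). Hdac4 signals were 196, 232 and 284 (mean 240.0 ± 31.6, n = 6), and the difference was 0.08 ± 0.16 (interval -0.25 to 0.41, adjusted p = 0.895). All 4 genes overlapped with WT+LPS, and 0 of 4 passed where 0.990% of the panel did. This comparison and those of the other genotypes with wild type share the 6 WT+LPS samples.

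Reversa cells, which carry both exchanges, did not have the low Mef2a signal of COX-2>COX-1. Mef2a signal was 359, 289, 336 and 252 in Reversa samples 51 to 54 and 223 in the mean of 55 and 56. These values overlapped with WT+LPS (199 to 295) and all lay above the highest COX-2>COX-1 value of 159.9. The mean was 292 ± 56.7 (SD, n = 5), and the log2 difference from WT+LPS was 0.14 ± 0.27 (SE, 95% interval -0.41 to 0.68, limma, adjusted p = 0.828).

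Mef2c signal varied more in Reversa than in the other LPS groups, at 767, 260.0, 586 and 512 in samples 51 to 54 and 220.4 in the mean of 55 and 56. The mean was 469 ± 229 (SD, n = 5), and the log2 difference from WT+LPS was -0.21 ± 0.25 (SE, interval -0.72 to 0.31, limma, adjusted p = 0.684). Sample 51, with the highest Mef2c, had the lowest macrophage marker sum of the group (16086) and the highest B cell and T and NK cell sums (4707 and 6258). The averaged samples 55 and 56, with the lowest Mef2c, had the highest macrophage sum (39885) and the lowest B cell and T and NK cell sums (2808 and 1298). Macrophage, B cell and T and NK cell sums were 23660, 3901 and 4754 in sample 53. They were 33748, 3169 and 3012 in sample 54, and 27975, 3479 and 2286 in sample 52. Samples 54 and 52 were thus out of that order for the macrophage and B cell sums. In Reversa, mean Ccr7 signal was 3046 and mean Cd40 signal 3310, most of the T and NK cell sum and of the B cell sum. A higher sum of either list thus need not mean more such cells. The part of cell composition in the spread of Mef2c was not tested. Without samples 55 and 56 the Mef2c difference was 0.03.

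Mef2d signal in Reversa was 564, 429, 479.7 and 349 in samples 51 to 54 and 267 in the mean of 55 and 56. Only the last lay below the highest WT+LPS value of 348. The mean was 418 ± 115 (SD, n = 5) and the difference was 0.39 ± 0.21 (SE, interval -0.04 to 0.83, limma, adjusted p = 0.277), the largest of the 4 genes here but not past the threshold. Hdac4 signal was 256, 204, 262 and 248 in samples 51 to 54 and 154 in the mean of 55 and 56, with a mean of 225 ± 45.9 (n = 5). Its difference was -0.03 ± 0.17 (SE, interval -0.38 to 0.32, adjusted p = 0.919). None of the 4 genes passed, while 8.42% of the panel did. In runs 1 and 2, the sample in lane 9 (51 and 53) was above that in lane 10 (52 and 54) for each of the 4 genes. Run 3 did not show this, since sample 55 (lane 9) was above 56 (lane 10) for Mef2a and below it for Mef2c, Mef2d and Hdac4.

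Comparisons among the exchange genotypes gave the same order. Mef2a in COX-1>COX-2 minus COX-2>COX-1 was 1.49 ± 0.25 (log2, SE), with overlapping groups because COX-1>COX-2 sample 55 (122) fell among the COX-2>COX-1 values, and the difference was 1.97 within run 2 and 0.60 within run 3. Mef2a in Reversa minus COX-2>COX-1 was 1.63 ± 0.27, with no overlap (1.49% of the panel was higher with no overlap in this comparison). Both share the COX-2>COX-1 samples that chose Mef2a and carry no test.

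The other 3 genes did not pass between COX-1>COX-2 and COX-2>COX-1, where 5.94% of the panel did. Their differences were -0.21 ± 0.24 for Mef2c (SE, limma, adjusted p = 0.665), 0.15 ± 0.20 for Mef2d (adjusted p = 0.722) and -0.03 ± 0.16 for Hdac4 (adjusted p = 0.949). Between Reversa and COX-2>COX-1, where 10.9% of the panel passed, they were -0.23 ± 0.25 for Mef2c (adjusted p = 0.537), 0.31 ± 0.21 for Mef2d (adjusted p = 0.351) and -0.14 ± 0.17 for Hdac4 (adjusted p = 0.584).

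Reversa minus COX-1>COX-2 uses no sample of the comparison that chose the genes. Mef2a differed by 0.13 ± 0.27 (SE, 95% interval -0.41 to 0.68, limma, adjusted p = 0.901), Mef2c by -0.03 ± 0.25, Mef2d by 0.17 ± 0.21 and Hdac4 by -0.11 ± 0.17 (adjusted p = 0.984, 0.856 and 0.876). None passed, against 1.49% of the panel. Of all 18 tests of these genes between LPS-treated groups, 0 passed the threshold in limma and 0 had an unadjusted p under 0.05.

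Set in order of group means, Mef2a was highest in WT-LPS, followed by Reversa, COX-1>COX-2, WT+LPS and COX-2>COX-1. Neighbours in that order overlapped except at the first and the last step. Mef2c ran from WT-LPS over COX-2>COX-1, WT+LPS and Reversa to COX-1>COX-2, and only WT-LPS stood apart from its neighbour. Mef2d ran from WT-LPS over Reversa, COX-1>COX-2 and COX-2>COX-1 to WT+LPS, with every neighbour overlapping. Samples of all exchange genotypes reached into the WT-LPS range, whose lowest value was 478.9. These were Reversa 51 and 53 (564 and 479.7), COX-1>COX-2 57 (535) and COX-2>COX-1 52 (519). Hdac4 ran from COX-2>COX-1 over COX-1>COX-2, WT+LPS and Reversa to WT-LPS, with every neighbour overlapping. The order was thus led by WT-LPS for the 3 MEF2 genes, and WT-LPS was the lowest for Hdac4.

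Other panel genes were ranked by how closely their 5 group means followed each of the 4 genes, as the root mean square difference of centred log2 means over the 5 groups. Nearest to Mef2a of 201 genes were Ppp1r12b (a myosin phosphatase subunit), Ptgir (the prostacyclin receptor, difference 0.35) and Limk1 (a kinase acting on cofilin, 0.36), where the median gene was at 0.99. Limk1 signal was 233 ± 24.1 in WT+LPS and 169.9 ± 24.1 in COX-2>COX-1 (SD, n = 6 each), and Ptgir signal was 156 ± 38.6 and 104.9 ± 24.6. Neither Limk1 nor Ptgir passed the threshold between these 2 groups. Their likeness was taken from group means that include the COX-2>COX-1 samples that chose Mef2a. Ppp1r12b was under background in all 6 COX-2>COX-1 samples (6.59 to 13.7) and between 13.4 and 29.4 in WT+LPS, so its level in COX-2>COX-1 has only an upper bound.

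Nearest to Mef2c were Tyrobp (an adaptor of myeloid receptors, 0.09), Mmp9 (a gelatinase, 0.11) and Itgb2 (the beta chain of leukocyte integrins, 0.12), against a median of 0.89. Nearest to Mef2d were Tgfbr1 (a receptor of TGF-beta, 0.10) and Il10rb (a chain of the IL-10 receptor, 0.13), against 0.71. Nearest to Hdac4 were Gnb1 (a G protein beta subunit, 0.07), Map2k4 (a kinase upstream of p38 and JNK, 0.07) and Nfe2l2 (a factor of the oxidative stress response, 0.10), against 0.65. These are likenesses over 5 group means that share the same samples, given as a description.

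Genes of the routes that act on MEF2 proteins and HDAC4 were read from 3 lists. Of the list of p38 and ERK5 cascades 7 genes were tested. The listed genes of the ERK5 branch (Map3k2, Map3k3, Map2k5 and Mapk7) were not analysed, so that branch is not covered. After LPS 4 of the 7 were lower and 2 higher in wild-type cells, where 34.2% of all tested genes were lower and 49.5% higher. The median log2 difference was -1.21, against 0.47 for all genes. Map2k6, a kinase that activates p38, had a signal of 134 ± 30.1 in WT-LPS and 3.43 ± 3.09 in WT+LPS (SD, n = 6 each), under background in all 6 LPS samples and at least 6.59-fold lower (limma, adjusted p = 5.38e-12). Mapk14, p38 alpha itself, fell from 1815 ± 251 to 376 ± 57.0 (-2.27, adjusted p = 2.45e-10). Map3k1 (-1.97) and Map3k5 (-1.21) were also lower. The 2 higher genes, Map2k4 (0.30, adjusted p = 0.0479) and Mapkapk2 (0.59), the second named after its values were seen, were both lower with equal medians (-0.62 and -0.33), and Map2k4 also lost its call when any 1 of 8 samples was left out (0.23 to 0.34 over all 12 such fits).

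Of the Gq, protein kinase C and calcium route, all 5 tested genes were lower after LPS, as were 34.2% of all tested genes. Their median was -1.32 against 0.47. The listed protein kinase D genes (Prkd1 and Prkd2), the Camk genes and Ppp3ca were not analysed. Nfatc3, a calcium-regulated transcription factor, was at -1.32 ± 0.17 (SE), the kinase genes Prkcb and Prkca at -1.46 ± 0.22 and -1.45 ± 0.25, Plcb1 (a phospholipase C) at -0.87 ± 0.26 and Gnaq (the Gq alpha subunit) at -0.72 ± 0.13, all past the threshold in limma. With the 4 reference genes, 3 of the 5 passed, and Gnaq (-0.21) and Plcb1 (-0.36) did not.

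Of the partners and targets of MEF2 factors or HDAC4, 10 tested genes are reported, of which 6 were higher and 2 lower after LPS, where 49.5% and 34.2% of all tested genes were, with a median of 1.21 against 0.47. Hif1a, a hypoxia factor, rose by 2.71 ± 0.15 (SE), and Jun, a subunit of AP-1, by 2.19 ± 0.18. Il10, a cytokine gene that MEF2 factors can act on, was under background in all 6 WT-LPS samples and had a signal of 239 ± 109 (SD, n = 6) in WT+LPS, at least 10.8-fold higher. Mef2b, the remaining family gene, named after its values were seen, was under background in all 6 WT-LPS samples (1.18 to 11.9) and between 31.0 and 62.8 in WT+LPS, at least 2.03-fold higher (limma, adjusted p = 1.10e-07). Mef2b thus moved opposite to the 3 other family genes, at a signal that stood for 24.3 to 50.9 counts.

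**Figure D5:**
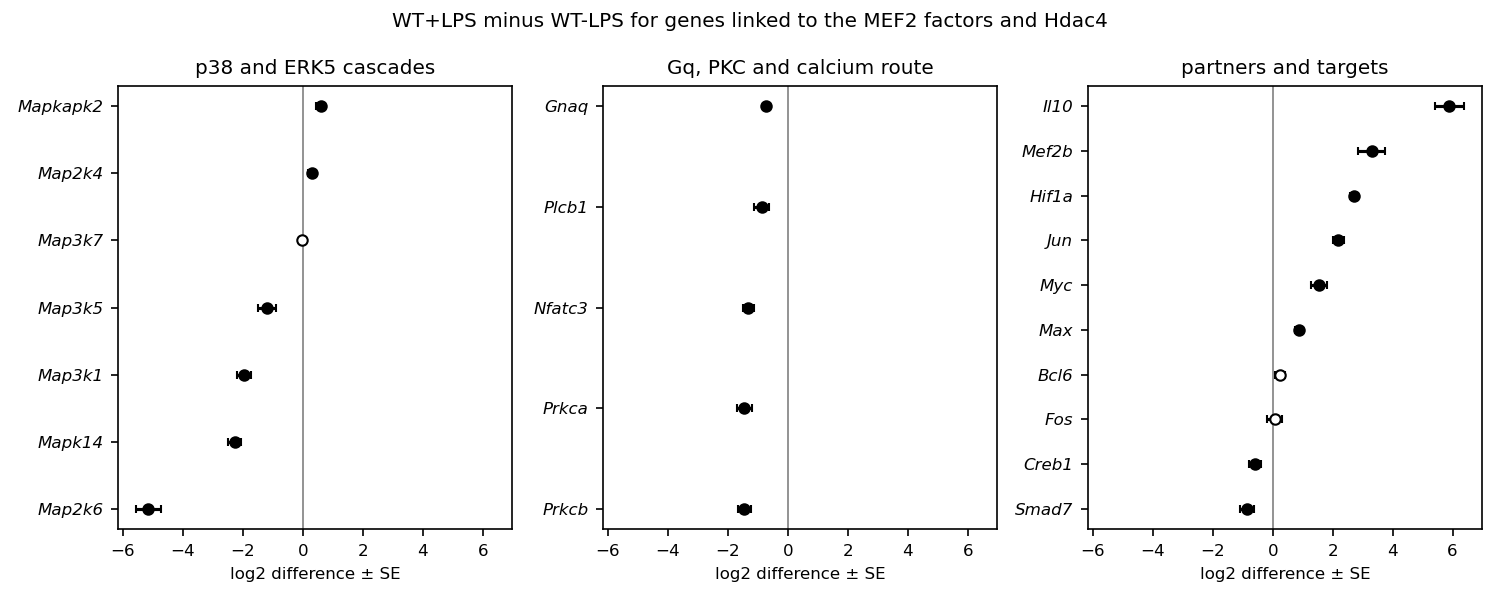
Log2 difference of WT+LPS minus WT-LPS (x axis, log2(signal + 1), ± SE) for the tested genes (y axis) of 3 lists; filled points passed the threshold of 0.05 and open points did not. All 5 genes of the Gq, protein kinase C and calcium route lie left of 0; Map2k6 was under background in all WT+LPS samples and Il10 and Mef2b in all WT-LPS samples, so their points are not measured folds.

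Between genotypes few genes of these lists passed. No gene of the 3 lists passed in limma when either single exchange was set against WT+LPS, and of the whole panel 0.990% did in each case. In Reversa, Gnaq signal was 515 ± 52.5 (SD, n = 5) against 796 ± 90.4 (n = 6) in WT+LPS, a log2 difference of -0.62 ± 0.13 (SE, adjusted p = 0.00335), which did not pass within any single run (-0.87, -0.52 and -0.38 in runs 1 to 3). In this comparison 8.42% of the panel passed. Plcb1 signal there was 103.0 ± 43.8 against 183 ± 43.6, a difference of -0.92 ± 0.27 (adjusted p = 0.0259). That of Plcb1 did not pass without Reversa 51 (-0.65, adjusted p = 0.109), Reversa 52 (-0.85), WT+LPS 51 (-0.80) or WT+LPS 52 (-0.90), with equal medians, with only these groups in the fit, with Reversa 55 and 56 kept apart, with the replicate number as a block or in runs 2 and 3 alone. The Gnaq differences of COX-1>COX-2 (-0.36, adjusted p = 0.203) and COX-2>COX-1 (-0.39, adjusted p = 0.161) did not pass, and whether Reversa differs from them was tested directly and did not pass either (-0.26, adjusted p = 0.366, and -0.23, adjusted p = 0.284). In Reversa minus COX-2>COX-1, Creb1, a factor of cyclic AMP signalling, was higher (0.77 ± 0.21, adjusted p = 0.0192) and Bcl6, a repressor, was lower (-0.57 ± 0.17, adjusted p = 0.0393). The call of Creb1 was lost without COX-2>COX-1 54 or Reversa 54 (0.71 each, adjusted p = 0.0518 and 0.0557), with only these groups in the fit, with the replicate number as a block and in each run alone. The call of Bcl6 was lost under each other scaling, without the filter, in those same fits, and in 8 of the 11 fits that left out a single sample (it held without COX-2>COX-1 53 or 55 or Reversa 51, with values from -0.76 to -0.39 over all 11). Markers moved with the Reversa results. Of the macrophage markers 3 of 10 were lower than in WT+LPS, and their sum was 16086 to 39885. Both tested genes of the mast cell and eosinophil list, Il5 and Il13, were higher (72.0 ± 47.5 and 41.7 ± 21.2 in Reversa against 15.6 ± 13.8 and 8.36 ± 6.18, limma, adjusted p = 0.0164 and 0.000509). In WT+LPS, Il13 was at or under background in all 6 samples and Il5 in 4 of 6. The sum of that list was 62.4 to 299.7 in Reversa against 9.92 to 74.6. The part of these in the Reversa results was not tested.

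Mef2b signal did not pass in any genotype comparison (limma). It was 59.9 ± 15.3 (SD, n = 6) in COX-2>COX-1, where all 6 samples (42.8 to 79.9) had Mef2b above background. In COX-1>COX-2 cells it was 54.9 ± 11.2 (n = 6), and Reversa samples ranged from 14.9 to 141.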

How the data were processed

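Signal values of 30 samples were analysed in 5 groups, taken from the labels. The deposited signal came in 2 tables (268 and 266 rows, equal where shared), and the larger was used. The authors' software is not given in the sources that were used. By the values, the deposited signal had a background removed in each lane with a floor of 1 and was brought to a geometric mean of 8147.9 for Cltc with Gapdh in every lane. Per the labels' protocols, RNA with an integrity number from 7 upwards was diluted to 20 ng/µl. No column lacked a sample. Mef2c is listed with a species suffix in the table.

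Counts were recovered for depth only, from whole steps between low values (100% within a tolerance of 0.1 of a step). limma 3.58.1 in R 4.3.3 was run on log2(signal + 1), which understates changes of low genes, in 1 fit of 29 samples with a mean per group. The filter asked for a signal above 20 in 6 or more samples and left 202 of 248 target genes. The 6 reference genes took no part in the tests. Tests were two-sided with Benjamini-Hochberg adjustment over the 202 genes and a threshold of 0.05. The fit was tested on simulated data. The labels give separate mice, and p-values measure the spread between them. A fold written as "at least" is a bound, from geometric means with values of the group near background raised to 20.

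The genes and lists were chosen with earlier results of these data known. Named are the 4 genes, up to 4 genes of smallest p per list among those that passed in a comparison, the 3 genes nearest to each of the 4 by group means, and the exchanged and reference genes where a value rests on them; others are marked, and 2 genes that this rule takes are not reported here. Alternatives were 4 scalings, the filter, log2(signal + 10), a fit of the 2 groups at hand, leaving out each sample, run as a block and alone, a prior variance that follows the mean, and the replicate number as a block. Other steps used matplotlib 3.10.9, scipy 1.17.1, pandas 2.3.3 and numpy 2.4.6 under Python 3.11.15. Promoter windows were cut from RefSeq sequences of GRCm38.p6, and all 4 genes matched by symbol.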

Additional observations from a re-analysis of the deposited data

Results flagged for a closer look

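A pair of values in COX-2>COX-1 stood apart from the other 5 samples of the group, both in sample 52. Its Mef2d signal was 519 (518.74), and the gap to the next sample was 0.721 of the range of the group. Its Hdac4 signal was 419 (419.07), with a gap of 0.755 of the range. The limit for 6 samples is 0.625. Of 20 groups checked 2 were flagged in this way, where chance flags about 1 in 20. The same sample had the lowest macrophage marker sum and the highest T and NK cell sum of its group (30042 and 7657). In WT+LPS the T and NK cell sum was mostly Ccr7, so it need not measure such cells. The part of these sums in the values of sample 52 was not tested.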

How the results depend on the processing

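After LPS in wild-type cells, 3 of the 4 genes passed the threshold, and 2 to 4 did under the alternatives. Leaving out any single sample of these groups kept it at 3. Mef2c and Mef2d kept their direction and call under all alternatives run, with log2 differences of -2.49 to -1.06 and -1.96 to -0.54. Mef2a kept its direction (-1.78 to -0.36) and lost the call with 4 reference genes and in runs 1, 2 and 3 alone (-0.91, -0.88 and -0.81, adjusted p = 0.113, 0.0576 and 0.0857), where each group has 2 samples. Hdac4 turned to -0.72 with equal medians and was -0.21 with equal total signal (adjusted p = 0.284). Calls over the panel, 100 higher and 69 lower as deposited, were 83 and 83 with equal total signal (shift of the median -0.40), 120 and 43 with 4 reference genes and 74 and 105 with equal medians.

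In the genotype comparisons 0 of the tested differences of these genes passed under every alternative run. Without each sample in turn, Mef2a in COX-2>COX-1 minus WT+LPS lay between -1.64 and -1.31, with the sign given by the values that chose the gene. Panel counts moved more, from 17 to between 9 (without Reversa 51) and 23 (without Reversa 55-56) for Reversa minus WT+LPS and to 5 in run 2 alone, from 3 to between 0 (signal above 20 in every sample) and 20 (run 2 alone) for Reversa minus COX-1>COX-2, from 12 to between 2 (run 1 alone) and 26 (equal total signal) for COX-1>COX-2 minus COX-2>COX-1, and from 22 to between 4 (run 1 alone) and 29 (equal total signal) for Reversa minus COX-2>COX-1. For COX-2>COX-1 and COX-1>COX-2 minus WT+LPS the main count of 2 became 1 to 4 and 1 to 5. Among the listed genes, Map2k4 after LPS turned to -0.11 with equal total signal and -0.62 with equal medians, Mapkapk2 to -0.33 with equal medians, and Plcb1 in Reversa minus WT+LPS to 0.038 in run 3 alone. The causes were not tested.

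Samples numbered alike (51 to 56 in 3 groups) were not paired by the data, since 2, 1 and 0 of 6 pairs correlated above 0.1 and 2, 2 and 0 of 6 samples correlated best with their own number. With the replicate number as a block the panel counts were 12 for Reversa minus WT+LPS, 12 for Reversa minus COX-2>COX-1 and 2 for COX-2>COX-1 minus WT+LPS, 0 tested differences of these genes passed, and Mef2a in COX-2>COX-1 stayed at -1.49. Planned tests on counts were not run, because the background had been removed and whole counts could not be restored. The low Mef2a values rest on as few as 26 counts, and 5 or 6 samples per group limit the precision.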
